A study of Hipposideros armiger with 2 samples.

Results

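Transcripts of 10 apolipoproteins were described: APOA1, APOA2, APOA4, APOA5, APOB, APOC2, APOC3, APOE, APOH and APOM. They were taken from the deposited tables by name, as every assembled gene whose best Swiss-Prot protein match carries a member's symbol in any letter case. All 10 were found, among 12783 distinct names, and they cover 38 of 55378 assembled genes. The study measured poly(A)-selected RNA of Hipposideros armiger, the great Himalayan leaf-nosed bat, and its title concerns heavy metals and liver function. The 2 libraries used here form 1 group: both carry the labels liver, WT and heavy metals exposure, and both come from the CW cave (Chunwan City). Sex (male) and age (adult) are given in the sample labels for replicate 2, and the design text describes male adults in general. The second cave of the design text was not analysed here. With 1 library against 1, differences are described without a p-value.

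Apolipoproteins are the protein parts of lipoproteins, the particles that carry cholesterol and triglycerides through blood. APOB forms the scaffold of very low density lipoprotein, APOA1 and APOA2 that of high density lipoprotein (HDL), and the smaller exchangeable members move between particles and control lipases and receptors. Hepatocytes secrete most of them. APOE is also made by macrophages, APOM also by kidney tubule cells, and APOA4 in many mammals largely by the intestine.

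The libraries held 18741210 and 18778331 expected counts, which are estimated read counts with decimals. The labelled tissue was checked first. The 14 hepatocyte markers were all found and summed to 11060 TPM (transcripts per 1000000 transcripts, a level per length) in replicate 1 and 357 TPM in replicate 2. The 7 alveolar type II markers, which belong to lung, summed to 3561 and 5598 TPM. By the log2 ratios of scaled counts described below, all 7 lay within 2-fold, with a median of 0.19. Of 5 airway secretory markers 4 were found, and they summed to 8382 and 13410 TPM. Nearly all of that was SCGB3A1, at 8069 and 12900 TPM. SCGB3A2 was at 311 and 488 TPM. On scaled counts SCGB3A1 and SCGB3A2 had log2 ratios of 0.23 and 0.21. SCGB1A1 (1 and 24 counts) and MUC5B (21 and 2 counts) did not pass the filter given below, and BPIFB1 has no assembled gene of its name. By the hepatocyte and alveolar type II markers, replicate 1 held both liver and lung transcripts. Replicate 2 held 15.7 times more alveolar type II than hepatocyte marker TPM although it carries the same label. The lower apolipoprotein levels of replicate 2 described below go with these lower hepatocyte marker sums, whose part in them was not tested. In such bulk samples fewer cells of a type and less RNA per cell cannot be told apart. Whether the tissue taken was liver alone, or the label of replicate 2 is correct, was not tested, so each mean ± SD below joins 2 libraries that may differ in tissue.

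The 10 apolipoproteins together reached 5904 TPM in replicate 1, and replicate 2 held 198 TPM of them. Their share of all counts was 0.506% (Wilson 95% interval 0.502% to 0.509%) against 0.0166% (0.016% to 0.0172%). All intervals given here reflect counting error alone. They do not allow for duplicate reads, as the reads carry no molecular identifiers, nor for the split of reads between related assembled genes. On TPM summed over all assembled genes of a name, APOE stood highest in both libraries, followed by APOC3, while APOA5 stood lowest in both. By the assembled gene with most replicate 1 counts alone, APOE (1508 TPM) and APOA5 (16.8 TPM) kept these places in replicate 1, but in replicate 2 APOA1 (33.3 TPM) stood above APOE (25.4 TPM), and APOB (0.67 TPM) below APOA5 (0.71 TPM). In replicate 1 APOE was the name with the 21st highest TPM of all and APOC3 the 50th, and in replicate 2 they were 883rd and 1547th. APOC2 was above APOA1 in replicate 1 and below it in replicate 2. Across the 10 genes the TPM of the libraries had a Spearman rho of 0.952, given as a description, since the genes share the libraries.

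**Figure D1:**
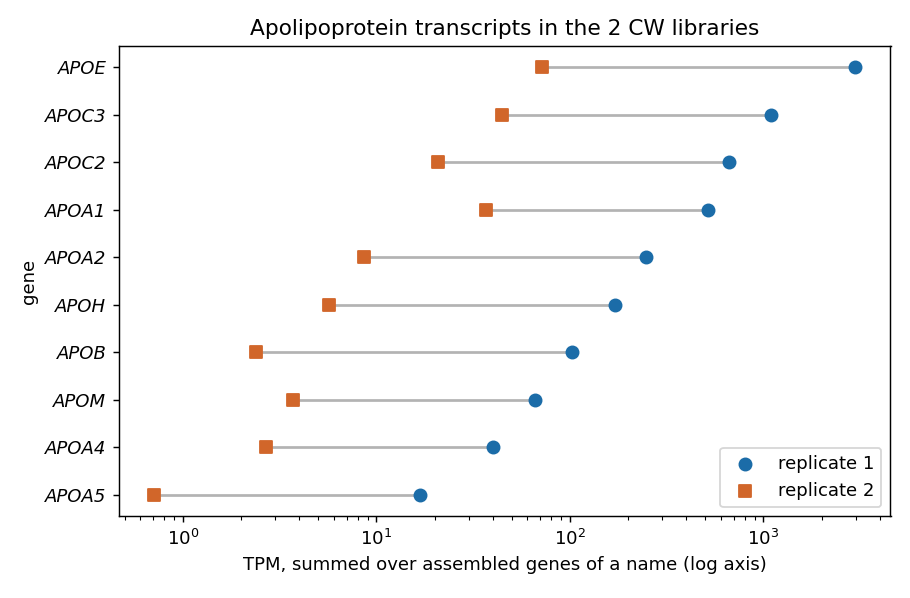
TPM of each apolipoprotein, summed over the assembled genes of its name, in replicate 1 (circles) and replicate 2 (squares), on a log axis, with a line joining the 2 values of a gene. All 10 genes are lower in replicate 2, from APOE at 2987 and 72.0 TPM to APOA5 at 16.8 and 0.71 TPM.

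Among the structural proteins of HDL, APOA1, which activates the cholesterol-esterifying enzyme LCAT, had levels of 518 and 36.6 TPM in replicates 1 and 2 (277 ± 340, mean ± SD, n = 2). Its counts were 12821 and 745, which is 20.8-fold lower in replicate 2 after TMM scaling (95% counting interval 19.4 to 22.5). APOA2, the second most abundant HDL protein in many mammals, was at 246 and 8.61 TPM (127 ± 168), with 11477 and 331 counts. Its difference was 42.0-fold (37.6 to 47.0), and its counting interval lies above that of APOA1; the spread between animals, which these intervals leave out, is unknown. APOM, a lipocalin that binds a signalling sphingolipid on HDL, was at 66.3 and 3.72 TPM (35.0 ± 44.2). With 750 and 32 counts its fold of 28.4 was less exact (19.9 to 41.8). The interval overlaps those of both scaffolds.

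Of the proteins of triglyceride-rich particles, APOB needs care with its scale. Its summed level was 103 and 2.38 TPM (52.5 ± 70.8), but 73.5% of that in replicate 1 came from 11 short assembled genes of listed length 207 to 1034, which held 2.38% of its counts. The near full-length assembled gene, of listed length 13562, was at 27.2 and 0.67 TPM with 9471 and 207 counts. Either way APOB was among the members that differed most: all its counts gave a 54.1-fold lower value in replicate 2 (47.3 to 62.2), and the long assembled gene alone 55.4-fold (48.3 to 63.9). Of the 10 short assembled genes that had any count, 6 were at 0 in replicate 2.

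APOC2, the cofactor of lipoprotein lipase, was at 665 and 20.8 TPM (343 ± 456), with 6032 and 240 counts, 30.4-fold lower in replicate 2 (26.7 to 34.8). APOC3, which inhibits triglyceride clearance, was at 1091 and 44.6 TPM (568 ± 740), with 14539 and 598 counts, 29.4-fold lower (27.1 to 32.0). On counts summed per name, these functionally opposed proteins therefore differed between the libraries by factors whose counting intervals overlap. Their separate assembled genes, described below, differed more. The longer ones were 17.2-fold (APOC2, 14.8 to 20.1) and 10.9-fold lower (APOC3, 9.89 to 12.1), without overlap. The shorter ones with most replicate 1 counts were 72.9-fold (56.1 to 96.5) and 81.7-fold lower (69.7 to 96.3), with overlap.

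APOA5, a low-abundance promoter of triglyceride clearance, was at 16.8 and 0.71 TPM (8.73 ± 11.3), with 625 and 23.1 counts and a fold of 32.9 (21.7 to 52.3). APOA4, a protein of chylomicrons and HDL, was at 40.0 and 2.69 TPM (21.3 ± 26.4), with 1137 and 68.2 counts. Its fold of 20.2 (15.8 to 26.3) and that of APOA1 were the smallest of the 10. Of 8 enterocyte markers, CDX2, LCT and CDX1 have no assembled gene of their name, and the 5 found summed to 10.7 and 2.2 TPM. Of these only CDH17 passed the filter given below, with 84 and 42 counts (log2 ratio -0.95). FABP2 had 14 and 1 counts, VIL1 8 and 0, and ALPI 4 and 0, while SI was at 0 in both libraries.

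APOE, the ligand that brings remnant particles to hepatic receptors, was at 2987 and 72.0 TPM (1530.0 ± 2061), with 33877 and 743 counts. It was 55.1-fold lower in replicate 2 (51.3 to 59.4). The 10 macrophage markers summed to 350.3 and 402 TPM, and 8 lay within 2-fold. The other 2, the scavenger receptor MARCO (366 and 22 counts, log2 ratio -3.43) and the secreted CD5L (42.7 and 2 counts, log2 ratio -1.67, count ratio 26.0 with a counting interval of 6.78 to 221.8), were over 2-fold lower in replicate 2; they were named with their values known. The part of macrophages in the APOE difference was not tested. APOH, also called beta-2-glycoprotein 1, a plasma protein that binds anionic phospholipids, was at 171 and 5.67 TPM (88.3 ± 117). Its 3821 and 113 counts gave a 40.9-fold lower value in replicate 2 (34.0 to 49.8).

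The next question was how these ratios sit among those of all genes. For calls on all names, log2 ratios of CPM + 1 (counts per 1000000 counts) were taken with TMM scaling and the median of all names removed, which understates differences of low genes such as APOA5 and APOM. All 10 members passed the filter of a mean of 1 CPM, and 10 of 10 were over 2-fold lower in replicate 2, against 5.16% of the 11289 names compared (583). Over 16-fold lower were 9 of 10, against 0.93% of names (105), and APOA4 lay just inside that limit with a log2 ratio of -3.97. None was over 2-fold higher, against 0.0266% of names (3). The median of the members was -4.81 and their range -5.73 (APOE) to -3.97, whereas the lower and upper quartiles of all names were -0.17 and 0.13. The 14 hepatocyte markers, all of them over 2-fold lower and 9 over 16-fold lower, had a median of -4.33, which lies inside the range of the apolipoproteins. TF (-1.52), TAT (-3.71), SERPINA1 (-3.84) and FGG (-3.91), named with their values known, were less low than any apolipoprotein of the 10.

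**Figure D2:**
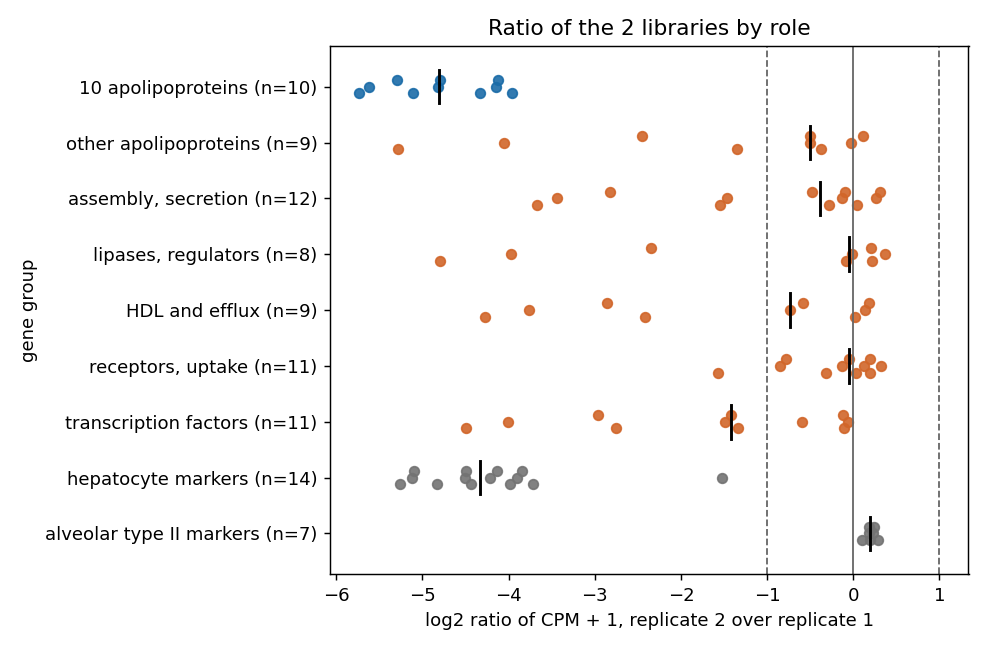
Log2 ratio of CPM + 1, replicate 2 over replicate 1, less the median of all names, for each gene compared (points) by group, with the group median as a black bar and dashed lines at a 2-fold difference. The 10 apolipoproteins lie between -5.73 and -3.97 and hepatocyte markers have a median of -4.33, while alveolar type II markers have a median of 0.19 and each lipid pathway group reaches from values near 0 to strongly negative ones.

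Since albumin (ALB) is the main secreted product of hepatocytes, each member was also expressed per 100 ALB counts of its own library. ALB had 83468 and 2592 counts, a 39.0-fold lower value in replicate 2 (37.5 to 40.6), close to the 36.9-fold of the 10 members together (35.6 to 38.2). The 10 members summed to 114 counts per 100 ALB counts in replicate 1 and 120.0 in replicate 2. On this scale APOA1 was at 15.4 and 28.7, APOC3 at 17.4 and 23.1, and APOA4 at 1.36 and 2.63, all higher in replicate 2. APOE was at 40.6 and 28.7 and APOB at 11.6 and 8.37, both lower. APOA2 (13.8 and 12.8) and APOH (4.58 and 4.36) were nearly level. Relative to albumin the apolipoprotein makeup thus differed less than the levels did, with at most a 1.93-fold difference when all assembled genes of a name are counted.

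**Figure D3:**
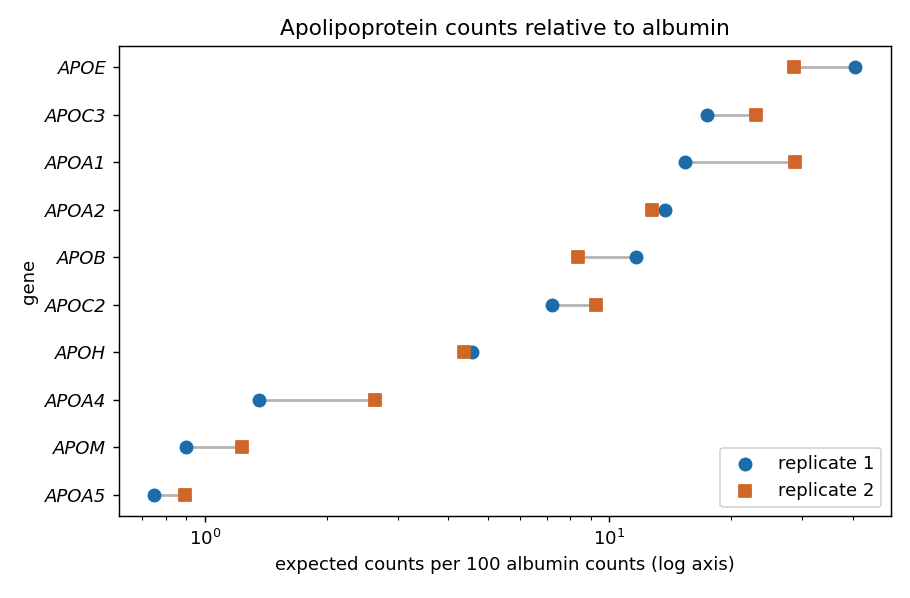
Expected counts of each apolipoprotein per 100 albumin counts in replicate 1 (circles) and replicate 2 (squares), on a log axis, with a line joining the 2 values of a gene. APOE leads in replicate 1 at 40.6, and APOE and APOA1 share a value of 28.7 in replicate 2.

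The assembled genes behind each name were then examined one by one, since 1 name can join pieces of 1 transcript, alternative copies and sequence of another species. The 38 assembled genes had best matches in 15 species, among them 13 to human, 9 to mouse and 1 to rat; such a match names the nearest listed protein, not the source of the transcript. In both libraries 8 of them had 0 counts, and 6 of these 8 were among the 9 with a mouse match. Over the whole assembly 4.39% of all assembled genes and 3.84% of those with a mouse match had 0 counts in both. Only 16 of the 38 passed the filter of 1 CPM. Of these 14 were over 2-fold lower in replicate 2, against 6.81% of the 22025 assembled genes compared. Over 16-fold lower were 10, against 0.772%, and 1 was over 2-fold higher, against 0.0999%. That 1 has a mouse match, and of the 1760 compared with a mouse match 0.625% (11) were over 2-fold higher.

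APOE was the name whose assembled genes disagreed in direction. The assembled gene that held 91.1% of its counts in replicate 1, with a guinea pig (Cavia porcellus) match and listed length 1084, had 30863 and 462 counts (1508 and 25.4 TPM). It was 80.9-fold lower in replicate 2 (73.8 to 88.9). A short one of listed length 302, also matched to guinea pig, had 2927 and 58.6 counts but 1474 and 33.3 TPM, so it supplied about as much TPM as the long one. In contrast, the assembled gene with a mouse match, of listed length 1119, had 74.0 counts in replicate 1 and 216 in replicate 2 (3.46 and 11.4 TPM). This is 0.415 times as many in replicate 1 as in replicate 2 after scaling (0.314 to 0.542), and it made up 0.218% of APOE counts in replicate 1 and 29.0% in replicate 2. Without it APOE had 33803 and 527 counts, 77.7-fold lower in replicate 2 (71.3 to 84.8), and 40.5 and 20.3 counts per 100 ALB counts. The fold and the share relative to albumin of APOE in replicate 2 thus depend on whether that assembled gene is counted.

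For APOA1, the main assembled gene, matched to the tree shrew Tupaia belangeri, had 12746 and 686 counts, 22.5-fold lower (20.8 to 24.3). The one with a rat match had 74.6 and 59.0 counts, a fold of 1.54 (1.08 to 2.20). It made up 0.582% and 7.91% of the APOA1 counts. The assembled genes of APOE and APOA1 matched to mouse and rat were the 2 that were not over 2-fold lower among the 16 compared.

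In APOC3 and APOC2, assembled genes of the same Trinity cluster differed in how much lower they were. For APOC3 the one with a dog match (Canis lupus familiaris, listed length 751) had 10526 and 156 counts, 81.7-fold lower (69.7 to 96.3). The one with a horse match (Equus caballus, listed length 1529) had 3984 and 442 counts, only 10.9-fold lower (9.89 to 12.1). The former held 72.4% of APOC3 counts in replicate 1 and 26.1% in replicate 2, so the assembled gene with most counts was not the same in both libraries. APOC2 showed the same layout: the dromedary match (Camelus dromedarius, listed length 539) had 3433 and 57.0 counts, 72.9-fold lower (56.1 to 96.5). The squirrel monkey match (Saimiri boliviensis boliviensis, listed length 1772) had 2595 and 183 counts, 17.2-fold lower (14.8 to 20.1). The dromedary match made up 56.9% and 23.8% of APOC2 counts. The rule by which reads were split between such related sequences is not known from the labels or headers.

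**Figure D4:**
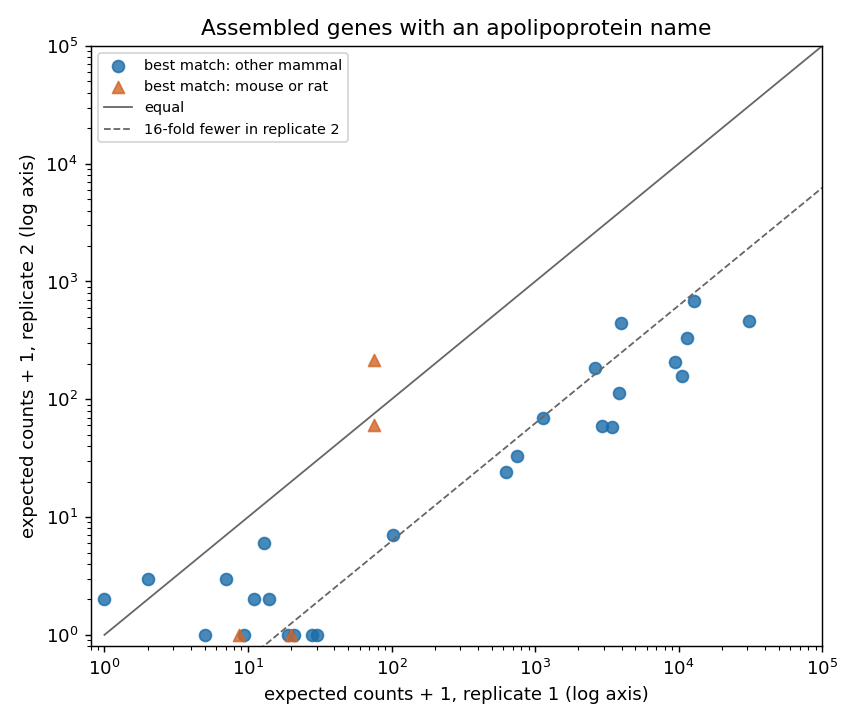
Expected counts + 1 of each assembled gene with an apolipoprotein name and any count, replicate 1 on the x axis and replicate 2 on the y axis, both log axes, by the species of the best match. Most assembled genes with high counts lie near or below the 16-fold line, and the 2 mouse or rat matches with about 74 counts in replicate 1 lie near or above the line of equality.

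Counts per TPM unit show whether the mix of assembled transcripts within an assembled gene was alike, because this quotient follows the mean length of the transcripts counted. Among 4925 assembled genes with 1 transcript, listed length of at least 300 and at least 50 counts in each library, the quotient was 1.13 times higher in replicate 1 (median; 5th to 95th percentile 1.12 to 1.13). The long assembled genes of APOB (1.13), APOH (1.12) and APOA4 (1.12) lay at or near that value. Those of APOC3 with a horse match (1.34, 10 transcripts), APOM (1.31, 7 transcripts), APOC2 with a squirrel monkey match (1.21, 7 transcripts) and APOA1 (1.21, 11 transcripts) lay above it, and that of APOA2 (1.07, 10 transcripts) below. In the first 4 the counted transcripts were thus shorter on average in replicate 2. The reference holds only assembled genes with 1 transcript, so it does not show how far those with several transcripts vary. Low counts in replicate 2 limit the values of APOM (32.0 counts) and APOA5 (1.15, 14 transcripts, 23.1 counts).

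RefSeq's gene list for this bat (assembly ASM189008v1) holds all 10 members, and there APOE, APOC1, APOC4 and APOC2 stand on consecutive lines, and APOA1, APOC3, APOA4 and APOA5 stand together with 1 other gene between APOC3 and APOA4. These are the gene clusters known from other mammals. On the scale of CPM + 1, members of the second cluster were between 15.6-fold (APOA4) and 28.2-fold (APOC3) lower in replicate 2. In the first cluster APOE was 53.1-fold, APOC4 38.9-fold and APOC2 27.8-fold lower. The order within each cluster depends on this scale. On TMM-scaled counts without a pseudocount APOC4 was 59.0-fold lower (43.2 to 82.8), and this counting interval includes the 55.1-fold of APOE. There APOA5 stood at 32.9-fold and APOC3 at 29.4-fold, with overlapping counting intervals. APOC1 had 6 and 1 counts and could not be compared.

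Apolipoproteins beyond the members did not all share this pattern. Of 12 listed, 10 had an assembled gene of their name and 9 passed the filter. In replicate 2, 4 were over 2-fold lower, against 5.16% of all names, and 5 lay within 2-fold, with a median log2 ratio of -0.51. APOC4, a minor protein of very low density lipoprotein, was at 300.3 and 7.58 TPM, and APOF, which inhibits lipid transfer between lipoproteins, at 38.5 and 1.92 TPM. CLU (apolipoprotein J), a secreted chaperone made by many tissues, was at 249 and 208 TPM, although its counts of 6621 and 3107 gave a log2 ratio of -1.35. APOD, a lipocalin not particular to liver, was at 35.2 and 51.5 TPM, with a log2 ratio of 0.11. APOO, a mitochondrial inner membrane protein despite its name, was at 10.3 and 13.5 TPM.

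Of the genes of lipoprotein assembly and secretion, 12 of 13 were found and compared. Over 2-fold lower were 5, against 5.16% of all names, and 7 lay within 2-fold, with a median of -0.38. TM6SF2, a membrane protein that promotes lipidation of very low density lipoprotein, was at 12.7 and 0.22 TPM (log2 ratio -3.67), and CIDEB, which acts in the same step, at 12.8 and 0.55 TPM (-3.43). SAR1B, a coat protein for large export vesicles, was at 31.1 and 14.7 TPM (-1.47). The general secretory genes P4HB, the partner subunit of the triglyceride transfer protein, at 289 and 171 TPM (-0.28), MIA3 at 29.9 and 26.6 TPM (-0.13) and SURF4 at 20.3 and 24.5 TPM (-0.09) lay within 2-fold. So did SORT1 (0.31) and TM6SF1 (0.27). MTTP, the triglyceride transfer protein that loads lipid onto APOB, is named for its role, with its values known; it was at 11.3 and 7.93 TPM, with 174 and 58 counts (-1.54).

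Of the plasma lipases and their regulators, 8 of 9 were found and compared. They had 3 over 2-fold lower, against 5.16% of all names, 5 within 2-fold and a median of -0.05. Hepatic lipase, LIPC, was at 61.4 and 3.26 TPM (-3.97). LMF1 (23.5 and 37.0 TPM) and LMF2 (23.5 and 25.3 TPM), which mature lipases in the endoplasmic reticulum, and GPIHBP1 (9.18 and 14.3 TPM), which anchors lipoprotein lipase on capillaries, had log2 ratios of 0.20, 0.21 and 0.37. LPL itself, the lipase that APOC2 activates and APOC3 inhibits, also named with its values known, was at 14.1 and 18.2 TPM (-0.02).

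Of 12 genes of HDL maturation, exchange and efflux, 11 were found and 9 compared. They had 4 over 2-fold lower, against 5.16% of all names, 5 within 2-fold and a median of -0.74. SAA2, an acute phase protein carried on HDL, was at 470.1 and 26.8 TPM (-4.28), SAA1 at 38.6 and 1.38 TPM (-3.77), and PON1, an HDL-bound esterase, at 72.1 and 9.87 TPM (-2.86). The cholesterol exporters ABCA1 (19.6 and 26.5 TPM, 0.13) and ABCG1 (12.4 and 15.9 TPM, 0.18) lay near 0. LCAT, the enzyme that APOA1 activates, named after its values were seen, had 19.0 and 0 counts and did not pass the filter.

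Of 14 lipoprotein receptor and uptake genes, 11 were found and compared, and 1 was over 2-fold lower, against 5.16% of all names, while 10 lay within 2-fold. With summed TPM 3 were over 2-fold lower. The median was -0.05. The remnant receptor LRP1 was at 82.3 and 85.7 TPM (-0.78), the HDL receptor SCARB1 at 87.3 and 30.7 TPM (-0.85), SDC1, a heparan sulfate proteoglycan that binds remnants, at 57.7 and 85.0 TPM (0.13), and the endocytic receptor LRP2 at 21.8 and 54.7 TPM (0.19). VLDLR (0.20) was also near 0. The log2 ratios are of counts, and for LRP1, SCARB1 and LRP2 the TPM values differ from them in direction or size. These names join 20, 5 and 4 assembled genes, whose part in that was not tested. CUBN and LRP8 have no assembled gene of their name.

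Of 17 transcription factors known to act on apolipoprotein genes, 14 were found and 11 compared. Over 2-fold lower were 7, against 5.16% of all names, and 4 lay within 2-fold, with a median of -1.42. HNF4A, a nuclear receptor that drives most hepatic apolipoprotein genes, had 501 and 18 counts (-4.01), and CREB3L3, which acts on APOA4, APOA5 and APOC2, 363 and 38 counts (-2.96). ONECUT1 had 428 and 3 counts, a scaled fold of 173 with a wide counting interval (58.7 to 841). FOXA1 (31.4 and 38.0 TPM, -0.12), CEBPA (8.93 and 11.1 TPM, -0.11) and NR2F2 (20.5 and 26.6 TPM, -0.06), which lung cells also express, lay within 2-fold.

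Over the 2 libraries a gene's pattern is a single ratio. By that measure, among the 853 other names averaging 100 CPM or more, the 5 nearest to the members' median were MAT1A (log2 ratio -4.77), GC (-4.86), ITIH3 (-4.71), AGXT (-5.02) and RBP4 (-4.58), at distances of 0.04 to 0.23. MAT1A makes S-adenosylmethionine, AGXT detoxifies glyoxylate, and GC, RBP4 and ITIH3 are plasma proteins for vitamin D, retinol and hyaluronan binding. MAT1A was at 315 and 10.4 TPM and GC at 105 and 4.15 TPM.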

How the data were processed

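Libraries were poly(A)-selected, per the labels' protocols, and reads were trimmed with cutadapt 1.9, per the submitters' processing notes, which also name mm10 for replicate 1. The features are Trinity clusters, per the file headers and identifiers; the assembler's version, the quantifier and the use of mm10 are not given in the sources used here. Expected counts, as the authors deposited them, were first rounded to integers. The other deposited column was read as TPM because it sums to 996837 and 996239; its header gives no unit.

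TPM and counts were summed per name. Unnamed assembled genes (30192, with 8.70% and 9.69% of counts) entered library sizes but not name ratios. Scaling used TMM (edgeR 4.0.16 in R 4.3.3; factors 0.9096 and 1.099). Calls used a pseudocount and filter of 1 CPM and folds of 2 and 16. Folds of members are ratios of TMM-scaled counts with exact conditional 95% intervals, for counting error only. A count of 3 was the detection floor. Labels do not link libraries to animals individually; spread may be technical. Alternatives included DESeq2 1.42.0 size factors. The ratio procedure was run on simulated counts of single assembled genes without TMM scaling. That run therefore did not test ratios of summed names with TMM scaling. Members and lists were chosen with earlier results of these data known. Genes named are all members, per role list the 4 highest in TPM and 2 at each end of the ratios, the 3 highest per marker list (not all printed, and some genes that the lists hold are not reported here), and the 5 nearest to the members' median. Other steps used scipy 1.17.1, pandas 2.3.3 and numpy 2.4.6 under Python 3.11.15. Sequences of the members were not used here.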

Additional observations from a re-analysis of the deposited data

How the results depend on the processing

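All 10 members stayed over 2-fold lower in replicate 2 under 7 other settings of pseudocount, filter, scaling, unit and summing, with log2 ratios between -6.27 and -3.71. The members' median lay between -5.21 (the assembled gene with the most counts only) and -4.56 (library size scaling), and 7 to 10 were over 16-fold lower. Library size scaling lifts the median of all names to 0.24 and turns the medians of lipases (0.20) and receptors (0.18) positive. With the filter raised to 10 CPM, which leaves fewer genes, those over 2-fold lower went from 5 to 1 for assembly and secretion and from 7 to 4 for transcription factors. With summed TPM they went from 4 to 7 for HDL maturation and from 1 to 3 for receptors; the cause was not tested. Leaving out assembled genes with mouse or rat matches, added after the data were seen, gave -6.21 for APOE, -4.44 for APOA1 and -5.61 for APOB. Without each replicate in turn the members summed to 197.9 to 5904 TPM and 0.0199% to 0.592% of TPM. No paired analysis was possible because both libraries belong to 1 group. Depth limits the folds of APOA5 and APOM, with 23.1 and 32 counts in replicate 2.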
